A study of Mus musculus with 9 samples.

Results

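The genes described here are those that encode the pore-forming and accessory subunits of potassium, sodium and calcium channels. They are defined by symbol, as the rows whose symbol begins with Kcn, with Scn and a digit, or with Cacn, without symbols ending in os or ot, which mark antisense and overlapping transcripts. Of the 23453 gene symbols in the count table, 121 were members. Potassium channel genes made up 85 of them, calcium channel genes 24 and sodium channel genes 12.

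Expression was measured by bulk RNA-seq in mouse cells in 3 states, with 3 replicate libraries per state and 9 in all. EpiLCs (epiblast-like cells) were made from naive ESCs by culture for 48 h in N2B27 medium with 1% KSR, FGF2 and Activin A. aEpiLCs (anterior epiblast-like cells) were EpiLCs kept for a further 24 h in N2B27 basal medium, and pEpiLCs (posterior epiblast-like cells) were EpiLCs kept for a further 24 h with Activin and CHIR99021, an agonist of WNT/beta-catenin signalling. The paper's methods give KSR at 1% in the medium of both. The cells are described as wild-type, no cell line is named for these libraries, and nothing says that replicates of a state were separate cultures, so p-values measure the spread between libraries, which may be technical. EpiLCs thus served as the shared starting population of both other states, and the comparisons of aEpiLCs and of pEpiLCs with EpiLCs use the same 3 EpiLC libraries.

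Ion channels are membrane proteins that let selected ions cross. Potassium channels set the resting membrane potential and end electrical signals, voltage-gated sodium channels start action potentials, and voltage-gated calcium channels turn a change in voltage into calcium entry. These proteins are best known from neurons and from heart and other muscle, yet transcripts of many of them are also found in cells that do not fire action potentials. Levels below are CPM (counts scaled to library size and normalised by TMM). A gene was called higher or lower when the Benjamini-Hochberg adjusted p of edgeR's quasi-likelihood test was below 0.05 over all genes tested and the absolute log2 fold change was at least 1.

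The libraries held between 20560564 and 23417917 counts, and 3 counts, taken as the detection floor, corresponded to 0.131 to 0.144 CPM. The epiblast markers were Pou5f1, Fgf5, Otx2, Dnmt3b, Pou3f1 and Utf1. Their summed CPM lay between 4440 and 4750 in EpiLCs, 4120 and 4340 in aEpiLCs and 1810 and 3090 in pEpiLCs. Dnmt3b and Pou5f1 carried most of this sum, and the 1810 was pEpiLC replicate 1. Against EpiLCs, all pEpiLC libraries were higher for Fgf5 and lower for the other epiblast markers. In aEpiLCs all libraries were higher for Fgf5 and Otx2, lower for Pou5f1 and Utf1, and overlapping for Dnmt3b and Pou3f1. The summed CPM of primitive streak markers was at most 7.36 in the EpiLC and aEpiLC libraries and between 500 and 2550 in pEpiLCs. Neural markers (Sox1, Pax6, Sox3, Tubb3 and Hes5) summed to 91.2 to 112 CPM in EpiLCs, 148 to 180 in aEpiLCs and 12.3 to 32.6 in pEpiLCs, 3 separate ranges, with the lowest in pEpiLC replicate 1. Tubb3 had 52.3 to 60.5 CPM in EpiLCs and 92.4 to 120 in aEpiLCs. Tubb3 and Pax6 were higher in all aEpiLC libraries than in all EpiLC libraries, while Sox1, Sox3 and Hes5 overlapped. In pEpiLCs all but Hes5, which overlapped, were lower in every library. pEpiLC replicate 1 stood apart within its state. It held the 2550, and 152 and 156 of 15797 genes differed by more than 4-fold (on CPM + 0.5) between it and replicates 2 and 3, against 9 to 13 genes for every other pair of replicates. The values without it are therefore given beside the results that rest on it.

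Most channel genes were transcribed at a low level. More than 3 counts were found in every library for 75 of the 121 members, and at most 3 counts in every library for 7, namely Cacng5, Kcnb2, Kcne3, Kcnip1, Kcnj6, Kcnk18 and Kcnk9. No member was at 0 in all 9 libraries. In all 3 libraries of a state, more than 3 counts were found for 84 members in EpiLCs, 88 in aEpiLCs and 83 in pEpiLCs. The filter on low counts left 84 members to test between aEpiLCs and EpiLCs, 83 between pEpiLCs and EpiLCs and 83 between pEpiLCs and aEpiLCs, and 34 members entered no test. A member with low counts could pass this filter through the state in which it was high, so medians over tested members describe those genes only.

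Per kilobase of exon, the highest mean over the 9 libraries was that of Kcnk1, a two-pore-domain potassium channel of the type that passes a background leak, at 35 CPM per kb. Cacng7, a gamma subunit related to the regulators of AMPA receptors, followed at 23.6 CPM per kb. Cacnb3, a cytoplasmic beta subunit of calcium channels, had 9.33 CPM per kb and the inward rectifier Kcnj3 7.84. The summed level of the sodium channel genes was 25.3, 26.1 and 25.5 CPM in EpiLC replicates 1, 2 and 3, 48.6, 43.8 and 43.7 in aEpiLCs and 61.2, 44.6 and 45.8 in pEpiLCs. All aEpiLC and pEpiLC libraries were thus above all EpiLC libraries. The calcium channel genes summed to between 196 and 212 CPM in EpiLCs, 221 and 231 in aEpiLCs and 157 and 170 in pEpiLCs, which put the 3 states in separate ranges. The potassium channel genes summed to between 289 and 298 CPM in EpiLCs, 347 and 364 in aEpiLCs and 256 and 317 in pEpiLCs, where the lowest value was that of replicate 1. These sums are carried by the few most abundant genes of each family.

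Between EpiLCs and aEpiLCs, 23 of the 84 members tested were called higher in aEpiLCs (27.4%), where 7.25% of all 15301 genes tested were called higher. A further 8 members (9.52%) were called lower, where 5.24% of all genes tested were. The median log2 fold change was 0.31 over the members tested and 0 over all genes tested. The libraries of the 2 states did not overlap for 50 of the 84 members, against 56.1% of all genes tested. Between EpiLCs and pEpiLCs, 19 of 83 members (22.9%) were called higher against 7.71% of all 15288 genes, and 11 (13.3%) lower against 8.13%. Here the median was 0.02 both over the members and over all genes, and 51 members did not overlap, against 58.6% of all genes. Between aEpiLCs and pEpiLCs, 3 of 83 members (3.61%) were called higher in pEpiLCs against 2.55% of all 15198 genes, and 9 (10.8%) lower against 4.74%. The median was -0.34 over the members and 0.01 over all genes, and 37 members did not overlap, against 39% of all genes.

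Some of these counts changed when a single library was left out, in 5-library fits with fewer residual degrees of freedom. Members called lower in aEpiLCs were 5 in place of 8 without EpiLC replicate 1 or 3 or aEpiLC replicate 1 or 2. Without pEpiLC replicate 1, members called in pEpiLCs against EpiLCs were 17 higher and 18 lower in place of 19 and 11, so that the excess of higher over lower calls was lost. Between pEpiLCs and aEpiLCs, 2 in place of 9 members were called lower whichever aEpiLC replicate was left out, and 0 in place of 3 higher without aEpiLC replicate 2 or 3. In the fits without an aEpiLC replicate, the members lost from the 9 kept log2 fold changes of -2.56 to -1.09 (edgeR adjusted p 0.0501 to 0.153). Apart from the fits without pEpiLC replicate 1, the share of all genes called with a library left out was not computed. With all 9 libraries in 1 fit, the aEpiLC calls of Cacna1c, Cacna1i, Cacnb4, Kcna1, Kcna5, Kcne1l, Kcnj10 and Kcnk12 against EpiLCs were lost (edgeR adjusted p 0.0554 to 0.112). DESeq2 lost those of Cacna1i, Cacnb4, Kcnj10 and Kcnk12 (adjusted p 0.0501 to 0.0865) and, in pEpiLCs, those of Kcnh1 and Kcnk2 (adjusted p 0.0535 and 0.116) and of Kcnq3, for its size.

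**Figure D1:**
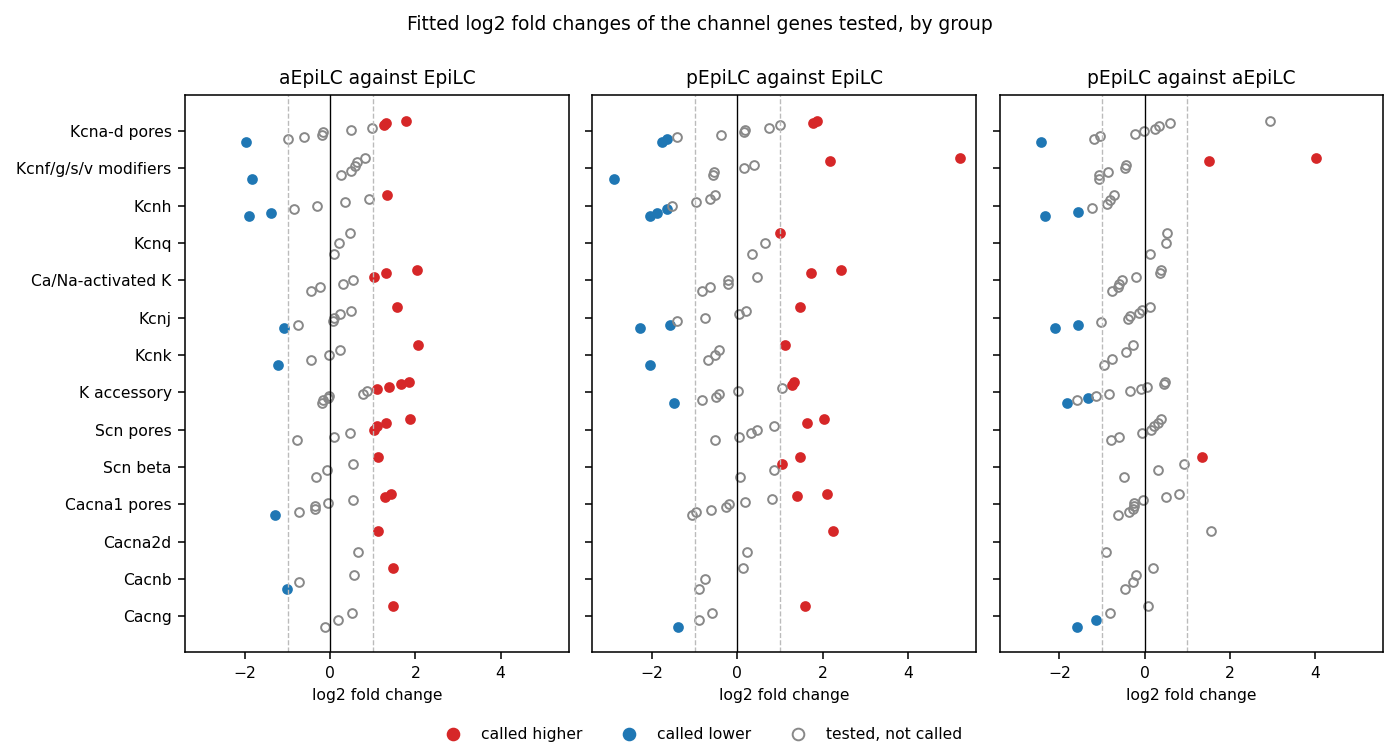
Fitted log2 fold changes (x axis) of the channel genes tested in each of the 3 comparisons, 1 point per gene, arranged by group of genes (y axis). Filled red and blue points were called higher and lower, open points were tested and not called, and dashed lines mark a log2 fold change of 1 in either direction. Both comparisons with EpiLC have more called points on the right than on the left, 23 against 8 and 19 against 11, the latter 17 against 18 without pEpiLC replicate 1, and the comparison of pEpiLC with aEpiLC has 3 against 9.

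Markers of 2 cell types in which channels are abundant, mature neurons and heart muscle, were at these levels. The summed level of 6 mature neuron markers was 43.8 to 56.6 CPM in EpiLCs, 126 to 139 in aEpiLCs and 54.5 to 86.2 in pEpiLCs, separate from EpiLCs in aEpiLCs and overlapping in pEpiLCs, with Stmn2 the most abundant and none of the 6 at or under the floor in all libraries. For 5 of the 6 (Snap25, Syt1, Syp, Stmn2 and Gap43) all aEpiLC libraries lay above all EpiLC libraries, and the sixth, Rbfox3, which encodes the neuronal antigen NeuN, overlapped at 1.57 to 3.44 CPM in EpiLCs and 2.76 to 3.56 in aEpiLCs. Against EpiLCs all 3 pEpiLC libraries were separate for Snap25 alone, where they were higher. The lowest sum in pEpiLCs, 54.5 CPM, was that of replicate 1. In pEpiLC replicates 2 and 3, Stmn2 (61.6 and 68 CPM) and Gap43 (7.62 and 8.99) also lay above EpiLCs (at most 41.7 and 6.74). Rbfox3, Syt1 and Syp overlapped EpiLCs in those replicates. The 6 heart muscle markers summed to 43.9 to 53.2 CPM in EpiLCs, 44.9 to 46.6 in aEpiLCs and 22 to 24.8 in pEpiLCs, overlapping between EpiLCs and aEpiLCs and lower in pEpiLCs. Myh6 carried most of this sum, at 29.4 to 38.1 CPM in EpiLCs and 10.6 to 14.6 in pEpiLCs. Against EpiLCs all libraries were lower for 2 of the 6 in pEpiLCs (Myh6 and Myh7) and for 3 in aEpiLCs (Myh7, Tnni3 and Nkx2-5), and the others overlapped, while Nkx2-5 and Tnnt2 were at most 0.218 and 0.375 CPM. In bulk samples, fewer cells of a type and less RNA per cell cannot be told apart, and the part of other cells in the channel results was not tested.

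The sodium channel genes called against EpiLCs were higher in the later state in each case. Of the 11 tested, 5 were called higher in aEpiLCs (45.5%, against 7.25% of all genes tested) and 4 in pEpiLCs (36.4%, against 7.71%). In either state 0 were called lower, where 5.24% and 8.13% of all genes were. Fitted values lay above 0 for 8 of the 11 in aEpiLCs and for 10 in pEpiLCs. In both states 0 were also lower at an unadjusted p under 0.05 in edgeR's test, and 0 were called lower by DESeq2 or by edgeR's likelihood ratio test. The lowest fitted value was that of Scn7a, a sodium-sensing relative of these pores, with -0.77 in aEpiLCs (edgeR adjusted p = 0.114) and -0.52 in pEpiLCs (adjusted p = 0.2), and its libraries of both later states lay below those of EpiLCs.

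Scn8a, a sodium channel pore of neurons (chr15:100869858-101045938, GRCm38, plus strand), had 4.25, 4.47 and 3.57 CPM in EpiLCs, 11.2, 10.3 and 9.02 in aEpiLCs and 16.3, 10.3 and 11.7 in pEpiLCs. All later libraries lay above the EpiLC libraries, and the highest was pEpiLC replicate 1. The log2 fold change was 1.3 ± 0.15 (SE) in aEpiLCs (edgeR adjusted p = 1.35e-05) and 1.63 ± 0.21 in pEpiLCs (adjusted p = 0.00102). Without pEpiLC replicate 1 the latter was 1.42.

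Of the sodium channel beta subunits, which modulate gating and bind other cells' proteins, Scn3b had 1.76, 2.14 and 1.65 CPM in EpiLCs, 5.16, 3.07 and 4.09 in aEpiLCs and 6.42, 3.9 and 5.22 in pEpiLCs. It was called higher in both, with log2 fold changes of 1.13 ± 0.237 (edgeR adjusted p = 0.00158) and 1.48 ± 0.245 (adjusted p = 0.0029). Without aEpiLC replicate 1 the former was 0.94, under the limit of 1. Scn2b had 3.93, 3.21 and 4.22 CPM in EpiLCs, 2.49, 3.71 and 2.94 in aEpiLCs and 11.7, 5.57 and 6.29 in pEpiLCs. The pEpiLC libraries were above all others, and replicate 1 was well above the other two. The log2 fold change of Scn2b in pEpiLCs was 1.04 ± 0.302 against EpiLCs (edgeR adjusted p = 0.0256) and 1.35 ± 0.32 against aEpiLCs (adjusted p = 0.029). Without pEpiLC replicate 1 these were 0.64 and 0.95, below the limit of 1, and the calls also failed without any single EpiLC replicate and without any single aEpiLC replicate. Scn4b, another beta subunit, was not called.

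In the cluster of 5 sodium channel pore genes on chromosome 2 (65457118 to 66784914, 1328 kb), all 5 were tested. Of these 2 were called, both higher in aEpiLCs, where 7.25% of all genes tested were called higher. Scn9a, a pore of pain-sensing neurons, had 4.21, 2.28 and 2.78 CPM in EpiLCs, 6.66, 7.46 and 5.93 in aEpiLCs and 6.66, 2.19 and 2.84 in pEpiLCs. pEpiLC replicate 1 lay within the aEpiLC range and replicates 2 and 3 at or near the lower EpiLC values, and without that library Scn9a was called lower in pEpiLCs than in aEpiLCs, at -1.42 ± 0.203 (edgeR adjusted p = 0.000405). The log2 fold change in aEpiLCs was 1.1 ± 0.21 (edgeR adjusted p = 0.000835) for Scn9a and 1.02 ± 0.29 (adjusted p = 0.011) for its neighbour Scn2a, and these were below 1 without EpiLC replicate 2 for Scn9a (0.92) and without EpiLC replicate 1 or 3 or aEpiLC replicate 1 or 2 for Scn2a (0.91 to 0.95). Scn1a, Scn3a and Scn7a were called in no comparison, and Scn4a, the pore of skeletal muscle, was at most 0.394 CPM and was not tested.

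Among the inward rectifiers, which carry potassium more readily into the cell than out of it, Kcnj3 was the most abundant and had the smallest adjusted p of all members between aEpiLCs and EpiLCs. It encodes GIRK1, a channel subunit opened by G proteins, and lies at chr2:55435970-55598145 on the plus strand. Its level was 19.1, 18.4 and 16.8 CPM in EpiLCs, 52.8, 56.6 and 53 in aEpiLCs and 25.9, 60.3 and 64.9 in pEpiLCs. pEpiLC replicate 1 thus lay near the EpiLC libraries, and replicates 2 and 3 above all aEpiLC libraries. The log2 fold change was 1.56 ± 0.0774 in aEpiLCs (edgeR adjusted p = 7.34e-09) and 1.47 ± 0.306 in pEpiLCs (adjusted p = 0.00722). Between pEpiLCs and aEpiLCs it was -0.12 ± 0.291 (adjusted p = 0.827), and 0.20 without pEpiLC replicate 1 (adjusted p = 0.0777).

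GIRK1 forms working channels together with another GIRK subunit, and the genes of the other GIRK subunits were at lower levels. Kcnj9, which encodes GIRK3, had 2.08, 2.65 and 2.26 CPM in EpiLCs, 1.36, 1.49 and 1.33 in aEpiLCs and 0.239, 0.482 and 0.699 in pEpiLCs. The 3 states did not overlap. Fitted log2 fold changes of Kcnj9 were -0.75 ± 0.24 in aEpiLCs (edgeR adjusted p = 0.0202, not called for its size), -2.29 ± 0.368 in pEpiLCs (adjusted p = 0.00255) and -1.56 ± 0.384 between pEpiLCs and aEpiLCs (adjusted p = 0.0333), the last of which failed without any single aEpiLC replicate or without pEpiLC replicate 2, where the adjusted p was between 0.0842 and 0.12. Kcnj6, which encodes GIRK2, was at or under the floor in every library. Kcnj5, which encodes GIRK4, had 1.58, 0.0876 and 0 CPM in the pEpiLC replicates and at most 0.497 in the other 6 libraries, and was not tested. Per kilobase of exon, the mean level in EpiLCs was 3.47 CPM for Kcnj3, 0.544 for Kcnj9 and 0.0198 for Kcnj5, and in pEpiLCs it was 9.66, 0.11 and 0.119. Over pEpiLC replicates 2 and 3 alone it was 12, 0.138 and 0.00935, so that Kcnj5 reached the level of Kcnj9 through replicate 1.

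Kcnj10, which encodes Kir4.1, the potassium-buffering channel of glia, lies 11.9 kb from Kcnj9 on chromosome 1. It had 1.48, 1.12 and 1 CPM in EpiLCs, 0.657, 0.452 and 0.598 in aEpiLCs and 0.335, 0.175 and 0.838 in pEpiLCs. It was called lower in aEpiLCs (log2 fold change -1.08 ± 0.341, edgeR adjusted p = 0.0191) and not in pEpiLCs (-1.41 ± 0.513, adjusted p = 0.0564), and the first call failed without EpiLC replicate 1 or aEpiLC replicate 2, at -0.91 and -0.94. Kcnj12, a strong rectifier of heart muscle, had 1.29, 1.44 and 0.87 CPM in EpiLCs, 2.2, 1.36 and 1.52 in aEpiLCs and 0.144, 0.526 and 0.512 in pEpiLCs. Its log2 fold change in pEpiLCs was -1.59 ± 0.462 against EpiLCs (edgeR adjusted p = 0.0261, and 0.0784 and 0.0953 without EpiLC replicate 1 or 2) and -2.09 ± 0.456 against aEpiLCs (adjusted p = 0.0223), and without any single aEpiLC replicate the adjusted p of the latter was between 0.0668 and 0.0875. The other 9 of the 13 inward rectifiers were called in no comparison.

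The promoters of Kcnj3 and of Kcnh8, a voltage-gated channel described next, are shown because these 2 genes had the smallest adjusted p of the members called higher in aEpiLCs and differ in CpG content. Both are the 250 bases before the annotated start (RefSeq, GRCm38.p6), with each CpG in capitals. The stretch of Kcnj3 is chr2:55435720-55435969 on the plus strand and holds 7 CpGs, and that of Kcnh8 is chr17:52602459-52602708 on the plus strand and holds 20. The median over 14497 genes of the table with a listed promoter, taking the first listed, was 13.
Kcnj3: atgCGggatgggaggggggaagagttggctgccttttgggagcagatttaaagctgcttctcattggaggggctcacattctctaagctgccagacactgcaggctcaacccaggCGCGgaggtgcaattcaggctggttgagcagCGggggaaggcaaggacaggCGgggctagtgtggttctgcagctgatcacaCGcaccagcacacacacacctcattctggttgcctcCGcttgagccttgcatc
Kcnh8: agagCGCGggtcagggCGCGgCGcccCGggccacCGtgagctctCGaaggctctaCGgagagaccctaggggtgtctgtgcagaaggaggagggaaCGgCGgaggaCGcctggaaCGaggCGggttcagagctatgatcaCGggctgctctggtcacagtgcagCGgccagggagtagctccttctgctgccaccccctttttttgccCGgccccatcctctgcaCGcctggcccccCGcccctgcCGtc
A promoter was listed for 87 of the 121 members. Only the first promoter listed for each gene was counted here, from 250 bases before to 50 bases after the start. The ratio of observed to expected CpGs was at least 0.6 in 36.8% of the members and in 60.6% of all genes, while the median GC content was 61.3% and 59.3%. A gene could differ between its listed promoters, as Cacna1c did, with a ratio of 0.152 at the first and 1.16 at another.

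The Kcnh genes, which encode relatives of the fly channel ether-a-go-go, held members that differed in opposite directions within 1 state. Kcnh8 (chr17:52602709-52979194, plus strand) had 6.84, 6.93 and 7.05 CPM in EpiLCs, 17.2, 20.5 and 15.8 in aEpiLCs and 4.41, 3.02 and 3.31 in pEpiLCs. The 3 states lay in separate ranges, with aEpiLCs above and pEpiLCs below EpiLCs. Kcnh8 had a log2 fold change of 1.34 ± 0.125 in aEpiLCs (edgeR adjusted p = 1.86e-06), -0.96 ± 0.186 in pEpiLCs (adjusted p = 0.00537, just short of the limit on size) and -2.33 ± 0.189 between pEpiLCs and aEpiLCs (adjusted p = 0.000398). Without pEpiLC replicate 1, Kcnh8 was called lower in pEpiLCs than in EpiLCs, at -1.14 ± 0.168. Kcnh7 (chr2:62693414-63184287) had 1.39, 1.91 and 2.74 CPM in EpiLCs, 3.94, 3.93 and 3.63 in aEpiLCs and 1.39, 1.05 and 1.44 in pEpiLCs. It was called lower in pEpiLCs than in aEpiLCs at -1.57 ± 0.223 (edgeR adjusted p = 0.00438) and not called against EpiLCs in either state. Its exons overlap those of Gca on the opposite strand, and whether the libraries kept strand is not given in the sources used here.

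Kcnh3 (chr15:99224861-99242817), whose exons overlap Mcrs1 on the opposite strand, went the other way. It had 2.64, 2.89 and 3.13 CPM in EpiLCs, 0.797, 0.859 and 1.7 in aEpiLCs and 0.335, 0.745 and 0.978 in pEpiLCs, so that every later library lay below every EpiLC library. Kcnh3 fell by 1.38 ± 0.294 on the log2 scale in aEpiLCs (edgeR adjusted p = 0.00183) and fell by 2.06 ± 0.355 in pEpiLCs (adjusted p = 0.00331). Kcnh1 was called lower in both (-1.9, and -3.22 without aEpiLC replicate 2, and -1.88) at no more than 1.04 CPM in any library and lost both calls without EpiLC replicate 3, that in aEpiLCs without aEpiLC replicate 1 or 3, and that in pEpiLCs without pEpiLC replicate 2. Kcnh4 was called lower in pEpiLCs at -1.65 ± 0.445 (edgeR adjusted p = 0.0197), and not without EpiLC replicate 1 or 3 or pEpiLC replicate 3 (adjusted p up to 0.0721), while without pEpiLC replicate 2 Kcnh4 was at -2.31. Kcnh2, the channel of the rapid delayed rectifier current of the heart, had 10.8, 13.8 and 13.4 CPM in EpiLCs, 13.3, 16.5 and 18.5 in aEpiLCs and 6.03, 10.3 and 9.87 in pEpiLCs, and was called in no comparison. Between pEpiLCs and aEpiLCs its log2 fold change was -0.89 (edgeR adjusted p = 0.034, not called for its size), and -0.68 without pEpiLC replicate 1. Without pEpiLC replicate 2 it was called lower there, at -1.02 (adjusted p = 0.0434).

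Kcnh6, related to Kcnh2, was the member lowest in pEpiLC replicate 1 against both others. It had 9.71, 10.9 and 10.3 CPM in EpiLCs, 7.55, 9.45 and 8.23 in aEpiLCs and 0.67, 4.78 and 5.26 in pEpiLCs. All pEpiLC libraries lay below the others, yet the log2 fold change of -1.53 ± 0.552 against EpiLCs was not called (edgeR adjusted p = 0.055), and with pEpiLC replicate 1 left out it was called lower at -1.04 ± 0.147 (adjusted p = 3.64e-05). Kcnh6 was also the only one of the 87 members with a listed promoter that held TTCAGCACC, the left arm of the RE1 site bound by REST, on either strand (1.15%, against 0.517% of all genes). The right arm of the site, also searched on both strands, was in 0 members and in 0.276% of all genes. A match of letters is a description and does not show binding.

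**Figure D2:**
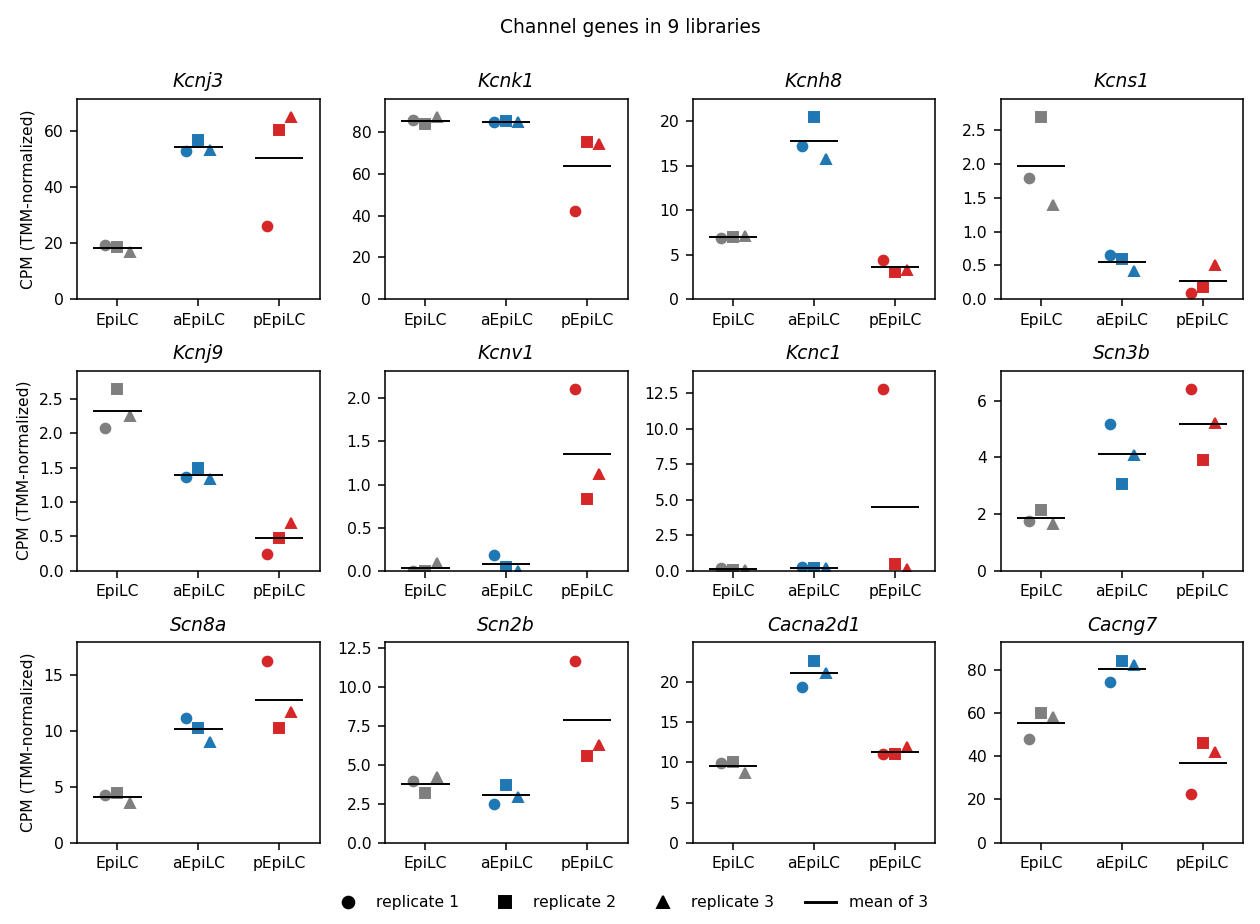
Level of 12 channel genes in the 9 libraries, in TMM-normalised CPM (y axis, linear and from 0, scaled per gene) by state (x axis). Symbols are replicates 1 to 3 and the bar is the mean of 3. Kcnh8 lies highest in aEpiLC and lowest in pEpiLC, Scn3b and Scn8a lie higher in both later states, and pEpiLC replicate 1 (circle) stands apart for Kcnj3, Kcnk1, Kcnc1, Scn2b and Cacng7.

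Of the 16 pore genes of the Kcna, Kcnb, Kcnc and Kcnd families, 10 were tested against EpiLCs in each state. In aEpiLCs 3 were called higher (Kcna5, Kcna6 and Kcnc4) and 1 lower (Kcna1), or 30% and 10% against 7.25% and 5.24% of all genes. In pEpiLCs 2 were called higher (Kcna5 and Kcna6) and 2 lower, among them Kcna7, or 20% each against 7.71% and 8.13%. The aEpiLC call of Kcnc4 failed without EpiLC replicate 3 (1.11, edgeR adjusted p = 0.061) or aEpiLC replicate 2 (1.16, adjusted p = 0.0532). Kcna1, Kcna5 and Kcna6, which encode Shaker-type delayed rectifiers, are neighbours on chromosome 6 (126532551 to 126740674, 208 kb). Kcna6 had 1.34, 0.791 and 0.74 CPM in EpiLCs, 3.61, 3.21 and 3.22 in aEpiLCs and 3.69, 2.72 and 3.54 in pEpiLCs, with log2 fold changes of 1.79 ± 0.267 (edgeR adjusted p = 0.00012) and 1.78 ± 0.297 (adjusted p = 0.00293). Its exons overlap Gm26673 on the opposite strand. Kcna5 had 0.416, 0.419 and 0.522 CPM in EpiLCs, 1.08, 1.45 and 0.782 in aEpiLCs and 3.06, 1.01 and 0.978 in pEpiLCs, with log2 fold changes of 1.26 ± 0.372 (edgeR adjusted p = 0.0136) and 1.87 ± 0.534 (adjusted p = 0.0244), the latter 1.12 without pEpiLC replicate 1. The call in pEpiLCs failed without any single EpiLC replicate, with adjusted p between 0.0684 and 0.084, and that in aEpiLCs without EpiLC replicate 2 or aEpiLC replicate 2 (adjusted p = 0.053 and 0.0788). Kcna1 differed in the other direction in aEpiLCs. It had 1.06, 0.838 and 0.479 CPM in EpiLCs, 0.0469, 0.317 and 0.23 in aEpiLCs and 3.54, 0.482 and 0.745 in pEpiLCs, which gave a log2 fold change of -1.97 ± 0.543 in aEpiLCs (edgeR adjusted p = 0.0092, and 0.106 with all 9 libraries in 1 fit).

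Kcnc1, a channel of fast-spiking neurons, had 12.8 CPM in pEpiLC replicate 1, 0.482 and 0.14 in replicates 2 and 3, and at most 0.281 in the other 6 libraries. It was therefore seen above 1 CPM in a single library and did not pass the filter of the main fits. Without the filter, and also without pEpiLC replicate 3, Kcnc1 was called higher in pEpiLCs than in EpiLCs. Both of these fits include replicate 1.

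The modifier subunits, which form no channel alone and alter the Kcnb channels they join, gave the members with the largest fitted differences in pEpiLCs. Kcns1 (chr2:164163619-164171113, minus strand) had 1.8, 2.7 and 1.39 CPM in EpiLCs, 0.657, 0.588 and 0.414 in aEpiLCs and 0.0958, 0.175 and 0.512 in pEpiLCs. All later libraries lay below all EpiLC libraries. Kcns1 had a log2 fold change of -1.83 ± 0.355 in aEpiLCs (edgeR adjusted p = 0.000905) and -2.89 ± 0.542 in pEpiLCs (adjusted p = 0.00474). The latter was -2.51 without pEpiLC replicate 1 and -3.78 without pEpiLC replicate 3, and was called in both. Kcns3 (chr12:11090202-11151056) had 0.925, 0.791 and 0.783 CPM in EpiLCs, 2.02, 0.769 and 1.15 in aEpiLCs and 5.27, 3.29 and 2.84 in pEpiLCs, where all libraries lay above the others. Its log2 fold change in pEpiLCs was 2.18 ± 0.307 against EpiLCs (edgeR adjusted p = 0.0015) and 1.52 ± 0.402 against aEpiLCs (adjusted p = 0.0413), and the latter call failed without aEpiLC replicate 2 or 3 or pEpiLC replicate 2 or 3.

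Kcnv1 (chr15:45106284-45114920) had 0, 0 and 0.087 CPM in EpiLCs, 0.188, 0.0452 and 0 in aEpiLCs and 2.11, 0.833 and 1.12 in pEpiLCs. Both counts in EpiLCs came from replicate 3, and 4 of the 5 in aEpiLCs from replicate 1. Over the 3 libraries of each state this was 87 counts in pEpiLCs against 2 in EpiLCs, a ratio of normalised counts of 44 with an exact 95% interval of 11.8 to 369 that covers counting error only. Against the 5 counts in aEpiLCs the ratio was 17.4 (7.16 to 54.8). Kcnv1 was called higher in pEpiLCs in both comparisons (edgeR adjusted p = 0.00235 and 0.0136), and against aEpiLCs the call failed without aEpiLC replicate 2 or 3 (adjusted p = 0.0761 and 0.0506).

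TCF and LEF factors, through which WNT/beta-catenin signalling acts, bind the core CTTTGAA or CTTTGAT. On either strand CTTTGAA was in the listed promoters of 5 members, namely Cacna1i, Cacnb2, Cacng6, Kcns1 and Scn2b (5.75%, against 4.61% of all genes), and CTTTGAT in that of Kcnk2 alone (1.15%, against 3.26%). The 2 stretches shown are those of Kcns1, which was lower in pEpiLCs, and Scn2b, which was higher, with the core or its reverse complement in capitals. They cover chr2:164171114-164171363 on the minus strand and chr9:45117626-45117781 on the plus strand (RefSeq, GRCm38.p6), both ending at the start of the gene in GENCODE.
Kcns1: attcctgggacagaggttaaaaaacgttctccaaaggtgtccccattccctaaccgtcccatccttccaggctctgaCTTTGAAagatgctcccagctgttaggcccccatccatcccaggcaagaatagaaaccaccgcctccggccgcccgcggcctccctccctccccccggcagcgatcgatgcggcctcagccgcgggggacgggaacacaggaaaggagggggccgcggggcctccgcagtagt
Scn2b: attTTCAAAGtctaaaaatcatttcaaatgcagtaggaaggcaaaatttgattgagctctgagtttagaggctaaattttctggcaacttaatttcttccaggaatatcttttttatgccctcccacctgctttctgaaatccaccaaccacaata
The share of members with a core was thus near that of all genes for CTTTGAA and lower for CTTTGAT, and members with a core had values on both sides of EpiLCs.

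Of the 11 two-pore-domain genes, 5 were tested against EpiLCs. Kcnk1 (chr8:125995170-126030685) had 85.8, 83.7 and 87.3 CPM in EpiLCs, 84.9, 85.6 and 85 in aEpiLCs and 42, 75.2 and 74.3 in pEpiLCs. Against EpiLCs the log2 fold change was -0.02 ± 0.0575 in aEpiLCs (edgeR adjusted p = 0.766) and -0.43 ± 0.196 in pEpiLCs (adjusted p = 0.112), and the latter was -0.20 without replicate 1. Its exons overlap Gm45875 on the opposite strand. Kcnk2, which encodes TREK-1, a leak channel opened by stretch, had 0.555, 0.326 and 0.522 CPM in EpiLCs, 2.49, 1.67 and 1.79 in aEpiLCs and 1.29, 0.964 and 0.838 in pEpiLCs, in separate ranges. Its log2 fold change was 2.05 ± 0.339 in aEpiLCs (edgeR adjusted p = 0.000267), the largest of the members called higher there whose mean was at least 1 CPM. In pEpiLCs it was 1.12 ± 0.35 (adjusted p = 0.0332), a call that failed without pEpiLC replicate 1 or 2 or without any EpiLC replicate, with adjusted p between 0.0627 and 0.112. Kcnk5 had 17.3 to 19.2 CPM in EpiLCs, 12.2 to 14.9 in aEpiLCs and 11.1 to 11.9 in pEpiLCs, and its log2 fold changes of -0.45 ± 0.108 and -0.7 ± 0.103 passed the adjusted p (0.00411 and 0.00175, edgeR) without reaching the limit on size. Kcnk12, at most 1.43 CPM, was called lower in both, at -1.23 ± 0.431 and -2.06 ± 0.563 (-2.78 without pEpiLC replicate 3), and lost both calls without EpiLC replicate 1 or 2, and 1 of them without aEpiLC replicate 1 or 2 or pEpiLC replicate 2.

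The potassium channels opened by calcium or sodium included 3 of 7 tested genes called higher in aEpiLCs (Kcnma1, Kcnn3 and Kcnt1; 42.9%, against 7.25% of all genes) and 2 in pEpiLCs (Kcnma1 and Kcnn3; 28.6%, against 7.71%). The call of Kcnt1, at 1.03 ± 0.288 (edgeR adjusted p = 0.00981), failed without EpiLC replicate 1 or 3 or aEpiLC replicate 1, at 0.93, 0.98 and 0.86. Kcnn3, a small-conductance calcium-activated channel, had 0.0462, 0.233 and 0.218 CPM in EpiLCs, 0.797, 0.723 and 0.598 in aEpiLCs and 1.25, 0.833 and 0.699 in pEpiLCs. Its log2 fold changes were 2.03 ± 0.509 (edgeR adjusted p = 0.00512) and 2.43 ± 0.525 (adjusted p = 0.00839), and all later libraries lay above all EpiLC libraries. Kcnma1, the pore of the large-conductance BK channel, rose by 1.32 ± 0.402 and 1.72 ± 0.419 on the log2 scale from a level of 0.305 to 0.559 CPM, and lost both calls without EpiLC replicate 1 or 3 and that in aEpiLCs without aEpiLC replicate 3. Of the beta subunits of BK, Kcnmb1 had 0.74, 0.977 and 1.17 CPM in EpiLCs, 1.88, 2.44 and 3.31 in aEpiLCs and 0.527, 1.14 and 0.466 in pEpiLCs, with a log2 fold change of 1.38 ± 0.299 in aEpiLCs (edgeR adjusted p = 0.00203) and -1.83 ± 0.404 between pEpiLCs and aEpiLCs (adjusted p = 0.0231, 0.0501 to 0.0933 without any single aEpiLC replicate or pEpiLC replicate 3). Kcnmb2 was called higher in aEpiLCs at 1.86 ± 0.485 (2.45 without EpiLC replicate 2) and Kcnmb4 in pEpiLCs at 1.34 ± 0.376, the latter not without EpiLC replicate 2 or 3 (edgeR adjusted p = 0.0691 and 0.0517). Kcnmb4 in aEpiLCs had a log2 fold change of 0.86 (adjusted p = 0.0464, not called for its size). Neither was called between pEpiLCs and aEpiLCs, at -1.59 ± 0.497 for Kcnmb2 and 0.46 ± 0.237 for Kcnmb4 (edgeR adjusted p = 0.0704 and 0.234).

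Among the other accessory potassium channel genes, Kcnip3, which encodes a calcium sensor that binds Kcnd channels and is also known as the repressor DREAM, had 4.76, 6.38 and 5.35 CPM in EpiLCs, 10.1, 9.68 and 8.74 in aEpiLCs and 17.1, 13 and 10.1 in pEpiLCs. Kcnip3 had a log2 fold change of 0.78 ± 0.146 in aEpiLCs (edgeR adjusted p = 0.000742, not called for its size) and 1.28 ± 0.222 in pEpiLCs (adjusted p = 0.00339). Its relative Kcnip2 had 5.09, 4.28 and 4 CPM in EpiLCs, 3.56, 3.93 and 4.32 in aEpiLCs and 0.718, 1.84 and 2.19 in pEpiLCs, where every library was below all others. It was called lower in pEpiLCs, at -1.49 ± 0.363 against EpiLCs (edgeR adjusted p = 0.0133, and 0.0544 without EpiLC replicate 1) and -1.32 ± 0.368 against aEpiLCs (adjusted p = 0.0487). The second call failed without any single aEpiLC replicate or pEpiLC replicate 1 or 2, and without pEpiLC replicate 1 the log2 fold changes were -1.15 and -0.98. Of the 5 Kcnq genes, which include the M-current channels, Kcnq3 alone was called, at 1 ± 0.222 in pEpiLCs (edgeR adjusted p = 0.00933), a value at the limit that was 0.99 with RLE size factors or DESeq2, 0.98 with all 9 libraries in 1 fit, 0.89 without EpiLC replicate 2 and 0.78 without pEpiLC replicate 3. Kcnq3 had 7.86, 5.96 and 7.61 CPM in EpiLCs, 11.4, 10.5 and 8.1 in aEpiLCs and 10.4, 14.1 and 18.5 in pEpiLCs.

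Of the calcium channel pores, 2 of 8 tested were called higher in aEpiLCs (25%, against 7.25% of all genes). In pEpiLCs these were 2 of 9 (22.2%, against 7.71%), the same 2 genes of the L type. Cacna1d, known from pacemaker and sensory cells (chr14:30039939-30491455), had 0.694, 0.838 and 0.87 CPM in EpiLCs, 1.88, 2.85 and 1.84 in aEpiLCs and 3.02, 1.53 and 1.86 in pEpiLCs, with log2 fold changes of 1.43 ± 0.297 (edgeR adjusted p = 0.00152) and 1.4 ± 0.333 (adjusted p = 0.0121). Its exons overlap Chdh on the opposite strand. Cacna1c, the pore of the heart's L-type current (chr6:118587240-119196418), had 0.462, 0.465 and 0.392 CPM in EpiLCs, 1.22, 1.45 and 0.598 in aEpiLCs and 3.21, 0.964 and 1.58 in pEpiLCs. All later libraries of both genes lay above the EpiLC libraries. Cacna1c had log2 fold changes of 1.28 ± 0.405 (edgeR adjusted p = 0.0192) and 2.11 ± 0.492 (adjusted p = 0.0114), the first of which failed without any single library other than aEpiLC replicate 3, with adjusted p up to 0.0991, and the second was 1.51 without pEpiLC replicate 1. Neither of the 2 most abundant pores was called. Cacna1b, an N-type pore of nerve terminals, had 20.4 to 23.3 CPM in EpiLCs, 26.4 to 37.8 in aEpiLCs and 21.6 to 28.3 in pEpiLCs. All its aEpiLC libraries lay above all EpiLC libraries. Its log2 fold changes were 0.53 ± 0.117 (edgeR adjusted p = 0.00239, not called for its size) and 0.19 (adjusted p = 0.25). Cacna1a, a P/Q-type pore, had 9.68 to 14.4 CPM over the 9 libraries and log2 fold changes of -0.04 and -0.26 (edgeR adjusted p = 0.842 and 0.174). Of the T-type pores Cacna1g, Cacna1h and Cacna1i, Cacna1i was called lower in aEpiLCs at -1.3 ± 0.423, from 0.601 to 0.74 CPM in EpiLCs (edgeR adjusted p = 0.0225), a call lost without EpiLC replicate 2 or 3 or aEpiLC replicate 2 (adjusted p = 0.067, 0.0793 and 0.102). Cacna1g had 9.39 to 11.2 CPM in EpiLCs, 6 to 6.33 in aEpiLCs and 8.52 to 9.16 in pEpiLCs. Its log2 fold change in aEpiLCs was -0.74 ± 0.13 (edgeR adjusted p = 0.000433, not called for its size). Cacna1g and Cacna1h were called in no comparison.

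Of the 4 alpha2-delta subunits, which carry the pores to the surface, 2 were tested. In each later state 1 was called higher than in EpiLCs (50%, against 7.25% of all genes in aEpiLCs and 7.71% in pEpiLCs). Cacna2d1 (chr5:15934691-16374511), whose product binds gabapentin, had 9.94, 10.1 and 8.7 CPM in EpiLCs, 19.4, 22.7 and 21.1 in aEpiLCs and 11.1, 11 and 11.9 in pEpiLCs. Cacna2d1 had a log2 fold change of 1.12 ± 0.111 in aEpiLCs (edgeR adjusted p = 3.23e-06) and 0.23 ± 0.122 in pEpiLCs (adjusted p = 0.153), and -0.91 ± 0.11 between pEpiLCs and aEpiLCs (adjusted p = 0.00223, not called for its size). Cacna2d2 (chr9:107399612-107529343) had 1.94, 2.79 and 2.44 CPM in EpiLCs, 3.52, 3.89 and 4.09 in aEpiLCs and 20.7, 5.74 and 7.73 in pEpiLCs, with replicate 1 far above the others. Its log2 fold change was 0.66 ± 0.204 in aEpiLCs and 2.25 ± 0.488 in pEpiLCs (edgeR adjusted p = 0.0166 and 0.00857), and 1.49 without pEpiLC replicate 1. Against aEpiLCs it was 1.56 ± 0.46 in pEpiLCs (edgeR adjusted p = 0.0582, not called) and 0.80 without pEpiLC replicate 1, while DESeq2, the likelihood ratio test and the fit of all 9 libraries called it higher. Cacna2d3 and Cacna2d4 were at most 0.277 CPM.

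Of the cytoplasmic beta subunits, Cacnb3 and Cacnb1 had lower values in both later states. Cacnb3 had 54.8, 52.2 and 49.9 CPM in EpiLCs, 31.9, 32.1 and 31.5 in aEpiLCs and 30.2, 23.7 and 30.5 in pEpiLCs, and its log2 fold changes of -0.73 ± 0.0683 and -0.9 ± 0.112 had adjusted p of 1.93e-06 and 0.000913 (edgeR) without reaching the limit on size. Cacnb1 had 14.9, 13.1 and 14.4 CPM in EpiLCs, 5.53, 8.09 and 7.73 in aEpiLCs and 6.9, 8.72 and 9.27 in pEpiLCs. It was called lower in aEpiLCs at -1.01 ± 0.145 (edgeR adjusted p = 8.89e-05), and not in pEpiLCs at -0.77 ± 0.144 (adjusted p = 0.00456), and the first value was -0.97, -0.99 and -0.85 without EpiLC replicate 1, EpiLC replicate 3 and aEpiLC replicate 1. Its exons overlap Gm11629 on the opposite strand. Cacnb4 was called higher in aEpiLCs at 1.48 ± 0.44 (edgeR adjusted p = 0.0142) from at most 0.326 CPM in EpiLCs, and the call failed without EpiLC replicate 1 (adjusted p = 0.0675).

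Among the gamma subunits, Cacng4 had 0.786, 1.3 and 1.04 CPM in EpiLCs, 2.53, 1.76 and 4.55 in aEpiLCs and 4.36, 2.23 and 2.89 in pEpiLCs, and was called higher in both, at 1.48 ± 0.354 (edgeR adjusted p = 0.00386) and 1.59 ± 0.334 (adjusted p = 0.00752). The neighbours Cacng6, Cacng7 and Cacng8 on chromosome 7 had their lowest values in pEpiLCs. Cacng7 (chr7:3332955-3368221) had 48, 60.2 and 58.4 CPM in EpiLCs, 74.5, 84.4 and 82.2 in aEpiLCs and 22.4, 46.4 and 42 in pEpiLCs, 3 separate ranges. Its log2 fold change was 0.52 ± 0.0861 in aEpiLCs (edgeR adjusted p = 0.000279) and -1.13 ± 0.234 between pEpiLCs and aEpiLCs (adjusted p = 0.0185), the latter called. Without pEpiLC replicate 1 it was -0.87, and without any single aEpiLC replicate its adjusted p was between 0.0592 and 0.0805. Cacng6 (chr7:3424195-3435667) had 2.82, 3.26 and 4.09 CPM in EpiLCs, 3.7, 3.53 and 4.42 in aEpiLCs and 0.718, 1.62 and 1.54 in pEpiLCs. It was called lower in pEpiLCs, at -1.39 ± 0.329 against EpiLCs (edgeR adjusted p = 0.0121, and 0.0552 without EpiLC replicate 3) and -1.59 ± 0.316 against aEpiLCs (adjusted p = 0.0161, between 0.0581 and 0.0742 without any single aEpiLC replicate). Cacng8 was called in no comparison.

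**Figure D3:**
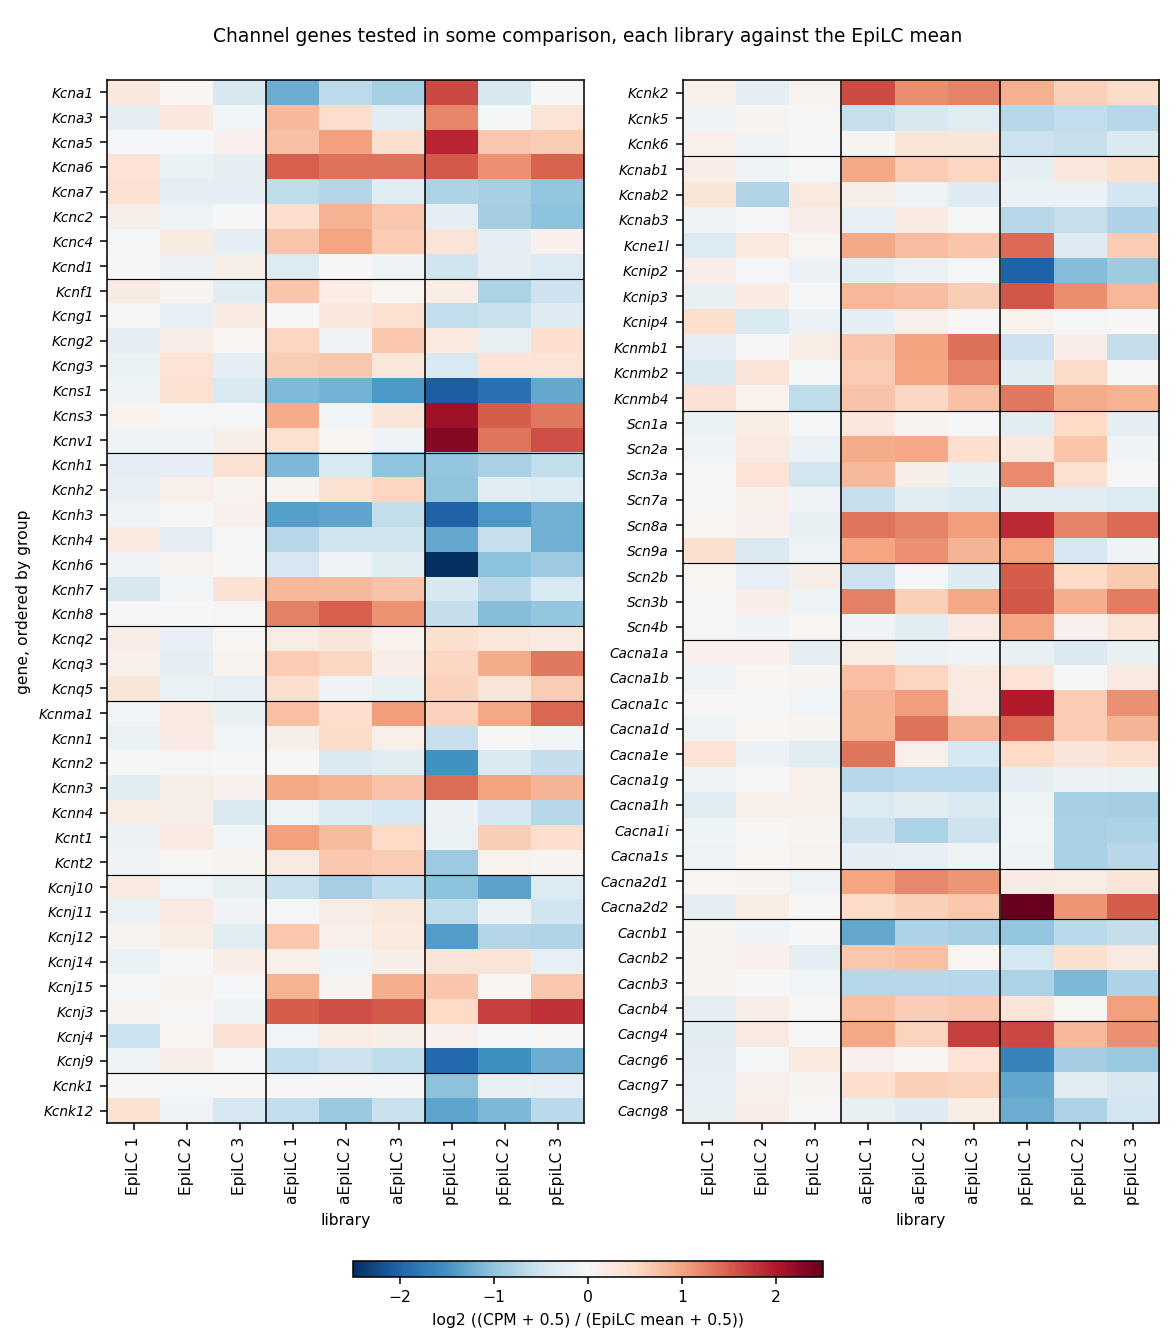
Level of 83 of the 87 channel genes tested in some comparison (rows, ordered by group and separated by lines) in each of the 9 libraries (columns), as log2 of the ratio of CPM + 0.5 to the EpiLC mean + 0.5, with colours saturating at 2.5 in either direction. Scn8a, Kcna6 and Kcnn3 are red in all 6 later libraries, Kcns1 and Kcnh3 blue, and Kcnh8 and Cacna2d1 differ between aEpiLC and pEpiLC.

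The calls that held in every setting tried, counting the 6 fits that each left out 1 library and 6 changes of normalisation, test, filter or model, were fewer. Between aEpiLCs and EpiLCs they were 12 of the 23 called higher (among them Cacna1d, Cacna2d1, Cacng4, Kcna6, Kcnh8, Kcnj3, Kcnk2, Kcnmb1, Kcnmb2, Kcnn3 and Scn8a) and 2 of the 8 called lower (Kcnh3 and Kcns1). Between pEpiLCs and EpiLCs they were 13 of 19 higher (among them Cacna1c, Cacna1d, Cacna2d2, Cacng4, Kcna6, Kcnip3, Kcnj3, Kcnn3, Kcns3, Kcnv1, Scn3b and Scn8a) and 5 of 11 lower (among them Kcna7, Kcnh3, Kcnj9 and Kcns1). Between pEpiLCs and aEpiLCs they were 0 of 3 higher and 2 of 9 lower (Kcnh7 and Kcnh8). The share of the calls of all genes that held in the same settings was not computed.

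pEpiLC replicate 1 differed by more than 4-fold (on CPM + 0.5) from replicate 2 for 2 of 88 members and from replicate 3 for 1 of 88, against 0 for every other pair of replicates within a state. Over all 121 members, Kcnc1 was higher and Kcnh6 lower by more than 4-fold in replicate 1 than in both others. Leaving this library out let 86 members and 15699 genes pass the filter between pEpiLCs and EpiLCs. Kcnk2 and Scn2b were lost from the members called higher, which left 17 (19.8%), while 7.05% of all genes were called higher in the same fit. Cacna1i, Cacna1s, Kcnc2, Kcnf1, Kcnh6, Kcnh8 and Kcnv2 were gained among those called lower, which gave 18 (20.9%), while 8.33% of all genes were called lower. The share of all genes called lower thus stayed near the 8.13% with the library, and that of the members went from 13.3% to 20.9%. Between pEpiLCs and aEpiLCs it gave 2 of 85 members higher (2.35%, against 2.51% of all genes) and 11 lower (12.9%, against 4.9%), with Cacng7, Kcnip2 and Scn2b lost and Kcnc4, Kcnf1, Kcnk2 and Scn9a gained.

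**Figure D4:**
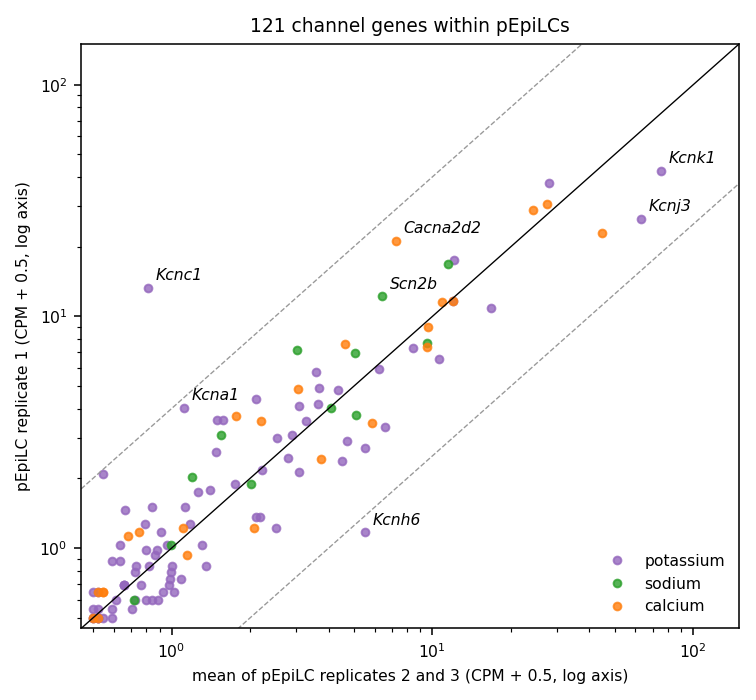
Each of the 121 channel genes in pEpiLC replicate 1 (y axis) against the mean of pEpiLC replicates 2 and 3 (x axis), both as CPM + 0.5 on log axes, coloured by family. The solid line is equality and the dashed lines are 4-fold. Kcnc1 lies above the upper dashed line and Kcnh6 below the lower one.

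The channel genes were also long. The median genomic span was 45.3 kb over the 121 members and 14.6 kb over the 22821 genes of the table with a position in GENCODE vM21. Members called higher had a median of 155 kb in aEpiLCs and 95.6 kb in pEpiLCs, where all genes called higher had 51.5 and 43.8 kb. Members called lower had a median of 27.2 kb in aEpiLCs and 19.6 kb in pEpiLCs, where all genes called lower had 13 and 15.3 kb. Between pEpiLCs and aEpiLCs, the 3 members called higher had a median of 12.3 kb and the 9 called lower 35.3 kb, while all genes called had 26.9 and 26.2 kb. Called genes were thus longer on the higher side in both comparisons with EpiLCs, whereas between the later states the members had the opposite order and all genes were nearly equal.

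Other genes of ion transport, a list of 63 with hyperpolarisation-activated and leak channels, intracellular calcium channels, mechanosensitive channels, pumps and exchangers, gave 55 tested genes. In aEpiLCs 6 were called higher (10.9%, against 7.25% of all genes) and 2 lower (3.64%, against 5.24%), with a median log2 fold change of 0.01. Against the same EpiLCs, pEpiLCs had 4 called higher (7.27%, against 7.71%) and 5 lower (9.09%, against 8.13%), with a median of 0.09. Between pEpiLCs and aEpiLCs 3 were higher (5.45%, against 2.55%) and 6 lower (10.9%, against 4.74%), with a median of 0.13. The shares against EpiLCs were thus near those of all genes. Hcn4, the pacemaker channel of the heart, had 1.29, 0.977 and 1.26 CPM in EpiLCs, 5.06, 5.61 and 6.35 in aEpiLCs and 0.958, 2.41 and 2.33 in pEpiLCs, with a log2 fold change of 2.25 ± 0.209 in aEpiLCs (edgeR adjusted p = 1.91e-06). The sodium leak channel Nalcn and its partner Unc80 were also called higher in aEpiLCs, at 1.24 ± 0.221 and 1.52 ± 0.18. Piezo2, a touch receptor channel, rose in both states, by 2.22 ± 0.153 and 3.36 ± 0.194 on the log2 scale, from 3.74 to 5.63 CPM in EpiLCs to 21 to 26.1 in aEpiLCs and 46.3 to 61.1 in pEpiLCs. The calcium release channels Ryr1, Ryr2 and Ryr3 were called lower in pEpiLCs, at -1.05 ± 0.144, -1.79 ± 0.217 and -1.46 ± 0.272, while Slc8a1, the sodium-calcium exchanger, was called higher at 1.86 ± 0.345 (edgeR adjusted p at most 0.00464 for these 4).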

How the data were processed

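The authors mapped paired-end reads of 150 bp to the mouse genome GRCm38 (mm10) with STAR 2.7.9a, estimated counts with RSEM 1.3.1 and deposited the expected counts per gene symbol without normalization. The gene annotation, read cleaning and strandedness are not given in the sources used here. Expected counts were rounded to whole numbers. Total counts lay between 20560564 and 23417917 per library, and 0 columns of values were left out.

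The whole table was fitted in edgeR 4.0.16 (R 4.3.3, limma 3.58.1), 1 comparison at a time over its 6 libraries, with TMM normalization, filterByExpr and the quasi-likelihood test, and calls required a Benjamini-Hochberg adjusted p below 0.05 together with a log2 fold change of 1 or more in either direction. The SE of a log2 fold change is its size divided by the square root of F. CPM were TMM-normalized over the 9 libraries. Positions and exon lengths came from GENCODE vM21, in which all 121 members matched, and promoters from RefSeq on GRCm38.p6. Exons of 35 members overlap a gene on the opposite strand, 21 of them a gene of the table.

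The members and lists were chosen with earlier results of these data known. Genes were named by rule. The rule took, in each comparison, up to 10 called genes per direction by absolute log2 fold change, not overlapping and with a mean of at least 1 CPM. It also took the 5 potassium, 3 sodium and 5 calcium channel genes with the highest mean CPM, genes called in opposite directions from EpiLC in the 2 later states (there were none), and genes for which pEpiLC replicate 1 differed by more than 4-fold from both other replicates. Some genes that the rule takes are not reported here, and they stay in the counts. Other genes were named as members of a group, cluster or complex after their values were seen. Results were recomputed with DESeq2 1.42.0, with RLE normalization, with the likelihood ratio test of edgeR, without the filter, with all 9 libraries fitted together, with the replicate number as a block, with no limit on the size of a change, and without each replicate in turn. Simulated data were used to test the fits, in which 200 genes changed by a log2 fold change of 2. For the comparisons of aEpiLC with EpiLC (15301 genes), pEpiLC with EpiLC (15288) and pEpiLC with aEpiLC (15198) it called 95.5%, 92.5% and 87.5% of them, with 4, 10 and 11 false calls.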

Additional observations from a re-analysis of the deposited data

How the results depend on the processing

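Over 102 pairs of a gene and a comparison (every member called, and the most abundant members), the alternatives gave 1086 values on the same side of the call and 132 that lost it, with 1 gained and 5 of opposite sign. The last were Cacna1a in aEpiLC against EpiLC, not called at -0.04, which was 0.01 without EpiLC replicate 1, 0.03 without EpiLC replicate 2, 0.03 without aEpiLC replicate 2 and 0.01 without aEpiLC replicate 3 (range without 1 replicate -0.15 to 0.03), and Kcnj3 in pEpiLC against aEpiLC, not called at -0.12, which was 0.20 without pEpiLC replicate 1 (range -0.34 to 0.20). No alternative moved the median log2 fold change of all genes by more than 0.1.

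Without a limit on fold change, the adjusted p alone gave 35 in place of 23 members higher and 14 in place of 8 lower in aEpiLC against EpiLC, 18 in place of 11 lower in pEpiLC against EpiLC and 14 in place of 9 lower in pEpiLC against aEpiLC, which follows from the wider rule. DESeq2 and the fit of all 9 libraries gave 5 and 4 in place of 8 lower in aEpiLC against EpiLC. In pEpiLC against aEpiLC, DESeq2, the likelihood ratio test and all 9 libraries in 1 fit each gave 5 in place of 3 higher. The cause was not tested.

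Leaving out 1 replicate gave 19 to 23 higher and 5 to 7 lower in aEpiLC against EpiLC, 5 without EpiLC replicate 1 or 3 or aEpiLC replicate 1 or 2. In pEpiLC against EpiLC it gave 14 to 20 higher and 8 to 18 lower, 18 without pEpiLC replicate 1. In pEpiLC against aEpiLC it gave 0 to 4 higher, 0 without aEpiLC replicate 2 or 3, and 2 to 11 lower, 2 without any of the aEpiLC replicates. These 5-library fits have fewer residual degrees of freedom.

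The replicate number as a block gave 23 higher and 8 lower in aEpiLC against EpiLC, 16 and 11 in pEpiLC against EpiLC and 2 and 10 in pEpiLC against aEpiLC. It ended the calls of Kcnk2, Kcnk12, Kcnq3 and Scn2b in pEpiLC against EpiLC (adjusted p 0.0591 and 0.0532 for Kcnk2 and Kcnk12, log2 fold change 0.98 for Kcnq3 and Scn2b) and that of Scn2b in pEpiLC against aEpiLC (adjusted p 0.0509). The numbers were not taken as pairing the libraries, since nothing says that they pair cultures. The deviations of same-numbered libraries from their state means correlated at between -0.0601 and 0.0209 for aEpiLC and EpiLC and 0.0153 and 0.0336 for pEpiLC and EpiLC. For pEpiLC and aEpiLC these correlations were between 0.0621 and 0.172, and each library correlated best with its own number. Pairing of these 2 states is therefore not excluded. Depth limits what can be said of members other than the 75 with more than 3 counts in every library, and with 3 libraries per state the exact permutation p of a single gene could not go below 0.1.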
